A study of Rattus norvegicus with 20 samples.

Results

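Translation initiation factors load a ribosome onto an mRNA and find its start codon, and elongation factors then carry the ribosome along the coding sequence. Genes for such factors were taken from the array by name: every gene probe whose symbol starts with Eif or Eef followed by a digit, and Pabpc1 and Tpt1. The rule found 72 probes on 81 spots for 45 genes, of 37199 genes and unnamed transcripts on the array, and 44 of the 45 were bright enough to be tested. Where a gene had several probes, the one of highest mean signal stands for it. The array's symbols are old, and 15 of the 45 genes carry another symbol in RefSeq, which is the one used here. Among them are 4 Argonautes, Ago1 to Ago4, which the array calls Eif2c1 to Eif2c4 and which act in RNA silencing rather than in initiation.

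Initiation is controlled at a pair of steps. The factor eIF2 brings the initiator tRNA to the ribosome, eIF2B recharges it with GTP, and stress kinases block that recharging by phosphorylating eIF2. The cap-binding factor eIF4E recruits mRNA through eIF4G and the helicase eIF4A, and 4E-binding proteins hold eIF4E back until mTOR signalling releases it. Growing axons make part of their protein locally, and mRNAs of the translation machinery themselves are among those found in axons.

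The samples were neurons cut by laser from the cortex beside a stroke in rats aged 2 years. Each of 10 animals gave a pool of about 300 neurons labelled sprouting and a pool of about 300 labelled non-sprouting. The labels come from cholera toxin B in a pair of colours, injected at 1 site next to the infarct, the later colour after a survival of 7 days in 5 animals and of 21 days in 5 separate animals, and capture followed 7 days after that. Every animal received the stroke and both tracers, and no uninjured animal is in these groups. Both pools of an animal, after 2 rounds of amplification, shared a forward array, where Cy5 marked the sprouting pool, and a dye-swap array, where Cy3 marked it. All values below are log2 ratios, positive where the signal was higher in sprouting neurons, and the value of an animal is the mean of its forward and its dye-swap array. A ratio between pools cannot tell fewer cells of a type from less RNA per cell.

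The share of probes well above background was 20.6% to 94.8% in the sprouting channel, lowest on the dye-swap array of day 21 animal 4, and 51.4% to 95.4% in the non-sprouting channel, lowest on the forward array of day 7 animal 2. The forward and dye-swap arrays of 1 animal correlated at 0.054 to 0.89 across all tested genes, which are not independent replicates. All 10 general neuron markers on a list were well above background on all 20 arrays in at least 1 of the cell types, and so were 7 of 10 astrocyte, 7 of 10 oligodendrocyte and 11 of 14 microglia and macrophage markers.

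Several of these genes belong to the mRNAs with a pyrimidine tract at their cap, the TOP mRNAs, whose translation follows mTOR as a set. They are shown because 10 of the 11 TOP mRNAs on a list of such factors were tested as members, and all 6 with an entry are printed. The windows hold 30 bases of the sense strand in RefSeq's GRCr8 build, 10 before and 20 from the annotated start, with the longest run of pyrimidines in capitals.
Eef1a1, chr8:88225050-88225079, minus strand: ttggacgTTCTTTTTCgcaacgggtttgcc
Eef1b2, chr9:72074081-72074110, plus strand: ggccggtcccggCCCTTTTTCTCCCTCagc
Eif3f, chr1:172369052-172369081, plus strand: cccttccgttctagCCTCTCTCTTTCTCgg
Tpt1, chr15:57566134-57566163, plus strand: CTCCCCCCgagcgccgctccggctgcaccg
Eef2, chr7:9189219-9189248, minus strand: ccgcagccgccgccatcgtcggcgcgCTTC
Eef1g, chr1:215289805-215289834, plus strand: CTgcggaatcaccatggcggctggggtaag
A run of 8 or more C or T, read on the sense strand, was in the window of 4 of the 6 TOP members with an entry, of 5 of 42 entries for members (11.9%) and of 3601 of 33469 entries in all (10.8%). Counted from the annotated start, with negative places before it, the runs of the 4 began at -3 in Eef1a1, 3 in Eef1b2, 5 in Eif3f and -10 in Tpt1. The Eef1a1 run crossed the start, while the Tpt1 run lay wholly before it, at the edge of the window. A run in the window is therefore not in itself a tract at the cap. RefSeq's annotated start need not be the cap site in these neurons.

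At day 7 none of the 44 factor mRNAs passed limma's adjusted p of 0.05, against 0% of 30999 features tested. At an unadjusted p under 0.05 the count was 7 of 44 (15.9%), against 6.13% of all features. Without day 7 animal 1 it was 3 of 44 (6.82%) against 4.57%, and with arrays centred on their median in place of loess 2 of 44 (4.55%) against 3110 of 30999 features. The 7 were Tpt1, Eif2s2, Pabpc1, Eif2ak1, Eif2s3 and Eef1b2 with ratios above 0, and Eif5b below 0. The median ratio of the 44 was 0.020, with 26 above 0, against a median of -0.0020 over all features, of which 48.8% were above 0. Without day 7 animal 1 the median of the factors was -0.0032, and under median centring -0.094, so the family as a whole is given no direction. No other fit tried called a member at either day. In 8 of the 44 (18.2%) all 5 animals had 1 sign, against 10.3% of features tested.

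At day 21 the count past the adjusted p of 0.05 in limma was again 0 of 44, against 0% of 31000 features. Only Tpt1 and Eif2ak1 had an unadjusted p under 0.05, or 4.55% against 4.76% of all features, while under median centring the count was 7 (15.9%) against 10.2%. The median ratio was 0.020 with 25 above 0, and -0.16 under median centring. Without day 21 animal 5 the median was -0.038. Tpt1, Eif3a and Eif2ak1 had 1 sign in all 5 animals, 6.82% against 5.65% of features tested. For the mean of both days limma called 0 members, against 0.00323% of features, 1 in all, and 5 members (11.4%) had an unadjusted p under 0.05, against 6.49% of features. The spread between animals was wide beside these ratios: the SD of a member over 5 animals had a median of 0.15 at day 7 and 0.16 at day 21, against 0.11 and 0.13 for all features.

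**Figure D1:**
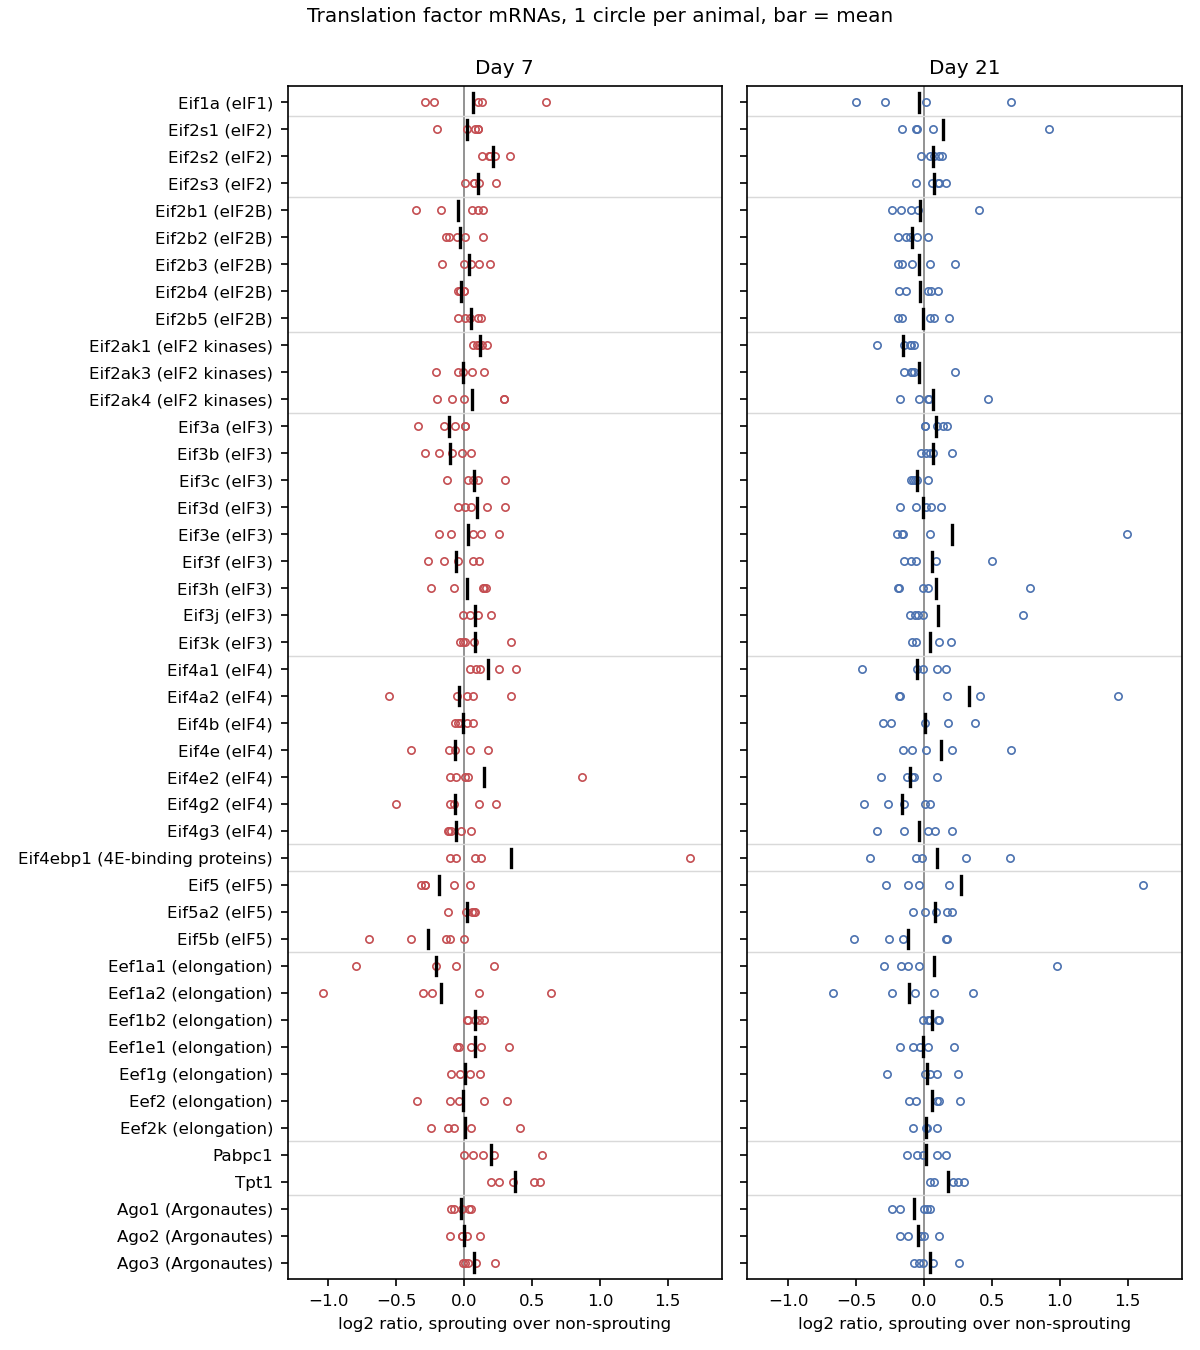
Log2 ratio of sprouting over non-sprouting neurons (x axis) for the 44 tested genes (y axis, grouped by role) at day 7 and day 21. Each circle is 1 animal, the mean of its forward and dye-swap array, and the bar is the mean of up to 5 animals. Most means lie near 0, Tpt1 and Eif2s2 lie to the right at day 7, and single animals lie far out for Eif4ebp1 at day 7 and for Eif5, Eif3e and Eif4a2 at day 21.

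The 3 subunits of eIF2 had ratios above 0 at both days, but under median centring 1 of 3 was above 0 at day 7 and 0 of 3 at day 21. Eif2s2, the beta subunit, had 0.23, 0.34, 0.13, 0.19 and 0.18 in the 5 animals of day 7. All 5 were above 0, and 4 of the 5 day 21 animals were too, at 0.11, 0.13, 0.043 and 0.075 beside -0.023 in the other. The mean was 0.21 ± 0.077 (SD, n = 5) at day 7 and 0.068 ± 0.062 (SD, n = 5) at day 21. In limma the adjusted p was 0.393 at day 7 and 0.921 at day 21. Median centring gave 0.041 and -0.16. The ratio was alike on both dye orientations, 0.22 on forward and 0.20 on dye-swap arrays of day 7, and no spot of this probe was saturated.

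A second probe of Eif2s2 gave 0.29 ± 0.20 (SD, n = 5) at day 7, above 0 in all 5 animals, and the third 0.081 ± 0.16 (SD, n = 5). At day 21 these probes parted in animal 5, with -1.13 for the second and 0.66 for the third probe. Eif2s3, the gamma subunit, which binds GTP, had 0.24, 0.076, 0.11, 0.070 and 0.0050 at day 7, all above 0. Its other probe was above 0 in the same 5 animals, at 0.11 ± 0.045 (SD, n = 5) beside 0.099 ± 0.086 (SD, n = 5) for the probe used. Eif2s1, the alpha subunit that the stress kinases phosphorylate, had 0.020 ± 0.13 (SD, n = 5) at day 7. Its day 21 mean of 0.14 ± 0.44 (SD, n = 5) rests on animal 5 at 0.92, and without that animal it was -0.052.

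Among the 3 eIF2 kinases that the array names as such, Eif2ak1 was the only one whose animals shared a sign. This gene encodes the heme-regulated kinase. Its ratios at day 7 were 0.11, 0.063, 0.13, 0.097 and 0.17, and at day 21 they were -0.15, -0.076, -0.095, -0.10 and -0.35. The days did not overlap: every day 7 animal was above 0 and every day 21 animal below it. Of all features tested, 0.797% had days that did not overlap and 0.184% had 1 sign in all animals of each day with opposite signs between days, and Eif2ak1 was the only member in either count. The mean was 0.11 ± 0.040 (SD, n = 5) at day 7 and -0.15 ± 0.11 (SD, n = 5) at day 21.

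The change of Eif2ak1 between days was -0.27 ± 0.059 (SE), with an adjusted p of 0.923 in limma. The gene was named for this change because its days do not overlap, so the lack of overlap is a description. Forward arrays alone gave 0.072 at day 7 and -0.16 at day 21, and dye-swap arrays alone 0.16 and -0.15. Of the 5 scan dates only 1 held animals of both days, so day and scan date cannot be told apart in the other animals. On that shared date the day 7 mean over 2 animals was 0.13 and the value of the 1 day 21 animal -0.15. Under median centring Eif2ak1 had -0.064 at day 7 and -0.38 at day 21. Eif2ak3, the kinase of the endoplasmic reticulum, had -0.011 ± 0.13 and -0.034 ± 0.15 at the 2 days, and Eif2ak4, which senses uncharged tRNA, 0.059 ± 0.22 and 0.065 ± 0.24 (SD, n = 5).

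**Figure D2:**
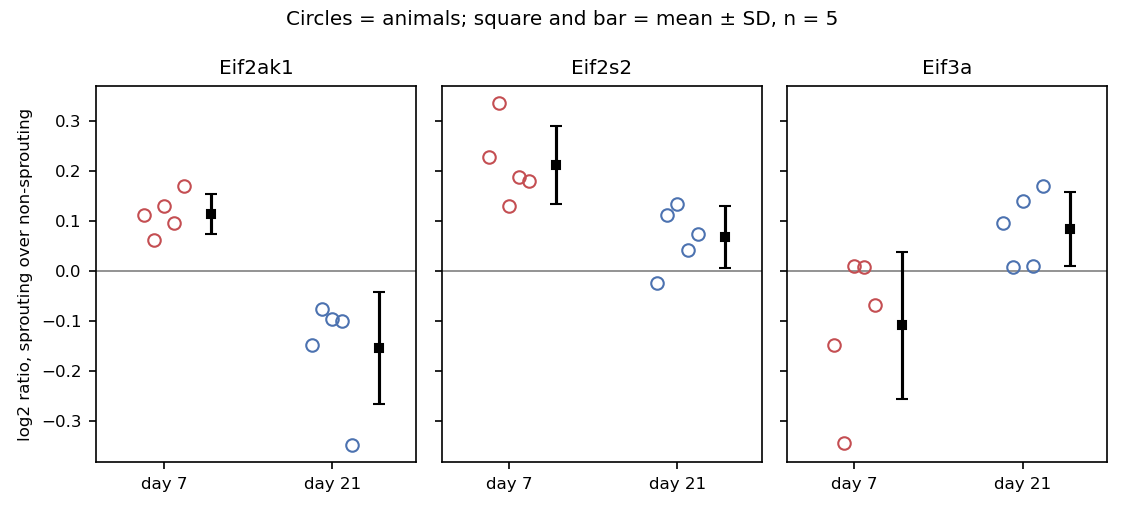
Log2 ratio of sprouting over non-sprouting neurons (y axis) at day 7 and day 21 for Eif2ak1, Eif2s2 and Eif3a. Circles are animals, and the square with its bar is the mean ± SD of 5 animals. The Eif2ak1 animals of day 7 lie at 0.063 to 0.17 and those of day 21 at -0.35 to -0.076, with no overlap, while the days overlap for Eif2s2 and Eif3a.

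The 5 subunits of eIF2B, the exchange factor, lay near 0. Their ratios ran from -0.047 to 0.048 at day 7, with 2 of 5 above 0, and from -0.089 to -0.0099 at day 21, with 0 of 5 above 0, and none had an unadjusted p under 0.05 in limma. Eif2b4 was below 0 in all 5 day 7 animals at -0.023 ± 0.020 (SD, n = 5), the smallest spread of any member. Its orientations parted, with a day 7 mean of 0.033 for forward and -0.078 for dye-swap arrays. The shared sign was not seen in the forward arrays alone. Eif2b5, the catalytic subunit, had 0.048 ± 0.069 at day 7 and -0.0099 ± 0.16 at day 21 (SD, n = 5).

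The change between days passed the adjusted p of 0.05 in limma for 0 of 44 members, against 0% of features tested. Because only 1 of the 5 scan dates held both days, such changes cannot be told apart from scan date in most animals. At an unadjusted p under 0.05 there were 5 members (11.4%), Eif2ak1, Eif2s2, Tpt1, Eif3a and Eif3b, against 4.14% of features. Without day 21 animal 5 there were 2 (4.55%) against 4.38%, and under median centring 1 (2.27%) against 1.56%. Eif3a, the largest scaffold subunit of eIF3, had -0.15, -0.34, 0.0097, 0.0091 and -0.067 at day 7 against 0.096, 0.0091, 0.14, 0.010 and 0.17 at day 21. The days met at 0.0091 to 0.0097, and the adjusted p of the change was 0.923 in limma. The other probes of Eif3a went the other way at day 21, at -0.19 ± 0.28 and -0.18 ± 0.28 (SD, n = 5), and their mean with the probe used was -0.094.

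Of the 9 subunits of eIF3, the scaffold that binds the small ribosomal subunit, 6 were above 0 at day 7 and 7 at day 21, and under median centring 0 and 1. Their ratios ran from -0.11 to 0.097 and from -0.052 to 0.21. The top of the day 21 range was Eif3e with -0.20, -0.16, 0.048, -0.16 and 1.49, so that 1 animal of 5 set the mean of 0.21 ± 0.73 (SD, n = 5). Without that animal Eif3e stood at -0.12. Eif3h and Eif3j had 0.78 and 0.73 in the same animal, while their other day 21 animals lay between -0.19 and 0.032. Eif3b was dim, well above background on 12 arrays in sprouting and 13 in non-sprouting neurons. Its ratios were -0.11 ± 0.14 at day 7 and 0.063 ± 0.087 at day 21 (SD, n = 5), and a further probe that RefSeq names Eif3b had the opposite signs, 0.10 ± 0.22 and -0.052 ± 0.12 (SD, n = 5).

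The eIF4 group held 7 members, of which 2 were above 0 at day 7 and 3 at day 21, with medians of -0.034 and -0.036. Eif4a1, the helicase, had 0.25, 0.38, 0.046, 0.11 and 0.088 at day 7, all above 0, and -0.053, 0.098, 0.16, -0.011 and -0.45 at day 21. Its day 7 mean was 0.18 ± 0.14 (SD, n = 5) with an adjusted p of 0.815 in limma, and 0.0060 under median centring. Its 4 other probes had day 7 means of 0.080 to 0.14, but animal 1 lay at 0.68 and 0.71 on the next 2 brightest probes while their other animals lay between -0.10 and 0.14. Eif4e, the cap-binding protein, had -0.070 ± 0.21 at day 7 and 0.12 ± 0.32 at day 21 (SD, n = 5). Both of its probes were highest in day 21 animal 5, at 0.64 and 0.68.

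Eif4b, a helper of the helicase, had -0.0092 ± 0.053 at day 7 and 0.0046 ± 0.28 at day 21 (SD, n = 5). Eif4g2, which lacks the site for eIF4E and supports cap-independent initiation, had -0.067 ± 0.28 and -0.16 ± 0.20 (SD, n = 5), with a like pair of means, -0.14 and -0.18, on its other probe. Eif4e2, a cap-binding relative that represses translation, had 0.86 in day 7 animal 1 and between -0.11 and 0.029 in the other 4. The second Eif4e2 probe gave 0.93 in that animal and 0.028 to 0.16 in the others.

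Eif4ebp1, the 4E-binding protein in this set, was likewise far higher in 1 animal than in the others. Its day 7 ratios were 1.66, 0.083, -0.10, -0.060 and 0.12, and its day 21 ratios -0.017, -0.058, 0.31, 0.63 and -0.40. Day 7 animal 1 stands apart, with 1.66 on the forward and 1.67 on the dye-swap array, and the other probe of the gene gave 0.85 there against -0.054 to 0.12 in the other 4. The day 7 mean of 0.34 ± 0.74 (SD, n = 5) was 0.011 without that animal, and the adjusted p in limma was 0.844.

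**Figure D3:**
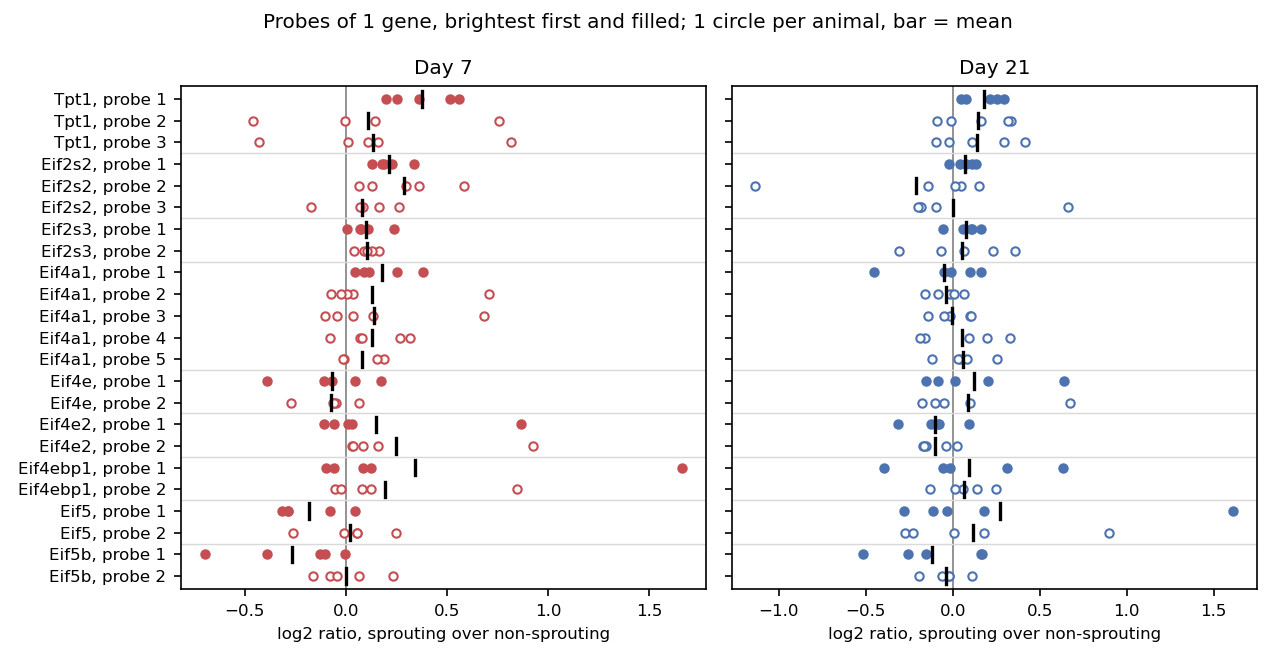
Log2 ratio of sprouting over non-sprouting neurons (x axis) for each probe of 9 genes with several probes (y axis), at day 7 and day 21. Filled circles are the brightest probe, which was the one used, open circles the others, each circle is 1 animal and bars are means. Both probes of Eif4ebp1 and of Eif4e2 place the same day 7 animal far right, both probes of Eif5 and of Eif4e place the same day 21 animal far right, and the probes of Tpt1 differ in spread.

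Over all genes with several probes, 27 further probes passed the filter. Their sign matched that of the brightest probe for 19 of the 27 at day 7 and for 17 at day 21.

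Eif5, which triggers GTP hydrolysis on eIF2 at the start codon, had -0.32, -0.29, -0.078, 0.044 and -0.29 at day 7 against -0.035, -0.11, -0.28, 0.18 and 1.61 at day 21. The day 21 mean of 0.27 ± 0.77 (SD, n = 5) came to -0.062 without animal 5, whose other Eif5 probe read 0.90. Eif5b, the GTPase that joins the ribosomal subunits, was below 0 in all 5 day 7 animals at -0.13, -0.70, -0.10, -0.0028 and -0.39. Its mean was -0.26 ± 0.28 (SD, n = 5), with an adjusted p of 0.809 in limma, while its other probe gave 0.0010 ± 0.15 (SD, n = 5). At day 7 the forward ratios of the Eif5b probe used ran from -0.72 to -0.15. Its dye-swap ratios were 0.0125, -0.68, 0.042, 0.14 and -0.33, so the shared sign was not seen there. Eif5a2 was dim and had 0.021 ± 0.082 and 0.078 ± 0.12 at the 2 days (SD, n = 5).

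Elongation factors lay near 0 with wide spread in the eEF1A genes. Of the 7, 4 were above 0 at day 7 and 5 at day 21, and none at either day under median centring. Eef1b2, the exchange subunit of eEF1B, had 0.15, 0.019, 0.029, 0.082 and 0.11 at day 7, then 0.046, 0.11, 0.028, 0.10 and -0.0036 at day 21. It was above 0 in 9 of 10 animals, at 0.077 ± 0.054 and 0.057 ± 0.050 (SD, n = 5), with an adjusted p of 0.803 at day 7 in limma. Eef1b2 was above 0 on 6 of 10 forward and 10 of 10 dye-swap arrays, with day 7 means of 0.023 and 0.13. Eef2, the translocation factor, had -0.0085 ± 0.25 and 0.061 ± 0.15, and Eef2k, the kinase that inactivates it, 0.0041 ± 0.25 (SD, n = 5) at day 7 and 0.014 ± 0.073 (SD, n = 4) at day 21.

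Eef1a2 is the form of eEF1A that mature neurons use. It had -1.04, 0.64, -0.24, -0.30 and 0.11 at day 7, then 0.077, -0.24, -0.067, 0.36 and -0.67 at day 21. At each day the animals lay on both sides of 0. The probe named Eef1a1 here is the array's Eef1a2l1, matched through a RefSeq synonym, and RNA of the near-identical genes could bind either probe, so both are uncertain. It had 0.22, -0.80, -0.21 and -0.058 in 4 day 7 animals, with no value in animal 5, whose forward spot was left out by an outlier flag, and -0.17, -0.040, -0.30, -0.12 and 0.98 at day 21. In day 7 animals 1 and 2 and in day 21 animals 1, 4 and 5, the eEF1A probes had opposite signs. Eef1g, a structural subunit of eEF1B, had 0.0078 ± 0.093 (SD, n = 4) at day 7 and 0.025 ± 0.19 (SD, n = 5) at day 21.

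Tpt1 encodes the translationally controlled tumour protein, whose mRNA is a standard TOP mRNA, and it had the smallest p of any member at day 7. Its ratios were 0.51, 0.25, 0.20, 0.36 and 0.56 at day 7 and 0.25, 0.30, 0.21, 0.048 and 0.077 at day 21. It was the only member above 0 in all 10 animals, a pattern of 1 sign that 0.4% of features tested showed. The means were 0.38 ± 0.16 and 0.18 ± 0.11 (SD, n = 5), with adjusted p of 0.393 and 0.921 in limma. For the mean of both days, 0.28 ± 0.042 (SE), the adjusted p was 0.341 in limma. Median centring gave 0.22 at day 7, -0.046 at day 21 and 0.085 for both days.

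The brightest Tpt1 probe reached the scanner's ceiling on 11 of 20 arrays, 8 of day 7 and 3 of day 21. On all 5 dye-swap arrays of day 7 the non-sprouting spot, in Cy5, was saturated, with recorded signals of 65215 to 65233, whereas the sprouting spot, in Cy3, was saturated on 1 of them. The forward arrays gave -0.32, 0.13, -0.060, 0.22 and 0.32 at day 7, a mean of 0.058, and the dye-swap arrays 1.35, 0.37, 0.46, 0.50 and 0.80, a mean of 0.69. Each day 7 animal was higher on its dye-swap array. At day 21 the forward arrays gave 0.14 to 0.21 and the dye-swap arrays 0.35, 0.40, 0.29, -0.040 and -0.055, of which the first 2 were saturated. With saturated spots set to missing no day 7 value of Tpt1 could be fitted. The day 21 ratio was then 0.062 ± 0.071 (SE) and rested on animals 4 and 5 alone. The other Tpt1 probes, saturated on 2 arrays and on 1, gave 0.11 ± 0.50 (SD, n = 4) and 0.13 ± 0.45 (SD, n = 5) at day 7 and 0.14 ± 0.19 and 0.14 ± 0.21 (SD, n = 5) at day 21. They ranged from -0.46 in day 7 animal 2 to 0.82 in day 7 animal 1.

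Eif4a2, which encodes another eIF4A helicase, was the other member with saturated spots, on 9 of 20 arrays. On 7 dye-swap arrays the non-sprouting spot was saturated and the sprouting spot on none. At day 7 the forward arrays gave -0.47, -0.59, -0.060, 0.11 and -0.28 and the dye-swap arrays 0.52, -0.51, 0.19, 0.58 and 0.17, so that the means, -0.26 and 0.19, had opposite signs. Day 21 animal 5, with no saturated spot, had 1.53 on the forward and 1.32 on the dye-swap array. The mean over animals was -0.034 ± 0.33 at day 7 and 0.33 ± 0.66 at day 21 (SD, n = 5), and 0.055 at day 21 without animal 5.

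**Figure D4:**
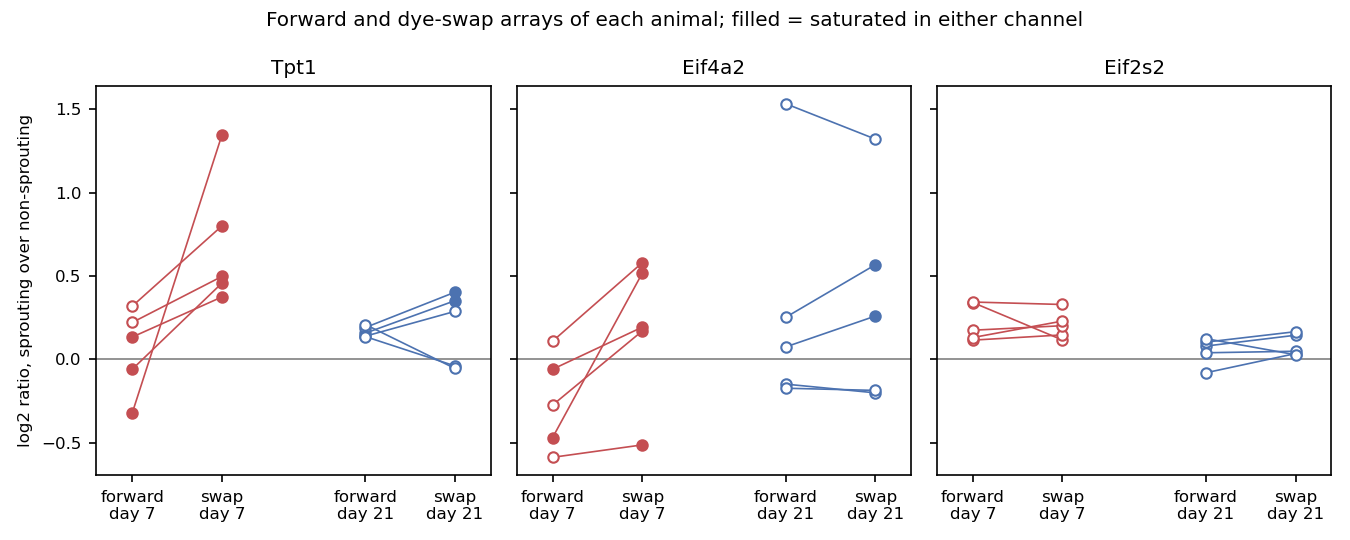
Log2 ratio of sprouting over non-sprouting neurons (y axis) on the forward and the dye-swap array of each animal (x axis), joined by a line, for Tpt1, Eif4a2 and Eif2s2. Filled circles mark arrays on which the spot was saturated in either channel. All 5 day 7 lines of Tpt1 and of Eif4a2 rise from forward to dye-swap, to filled circles, while Eif2s2 has no saturated spot and day 7 means of 0.22 and 0.20.

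The dye term, forward minus dye-swap ratio divided by 2, measures how far the orientations part. Limma called it in 4 of 44 members (9.09%) at an adjusted p of 0.05, against 18.7% of features tested, and in 12 members (27.3%) at an unadjusted p under 0.05, against 35.0%. The 4 were Eif5 at -0.078 ± 0.018, Eif5b at -0.077 ± 0.018, Eif4a2 at -0.12 ± 0.039 and Eef2 at 0.087 ± 0.021 (SE), with adjusted p of 0.0131, 0.0146, 0.0453 and 0.0168 in limma. Eif5 and Eif5b were lower on the forward array in 10 of 10 animals and Eef2 higher in 9 of 10. Tpt1 had -0.16 ± 0.059 (SE) with an adjusted p of 0.0683 in limma, lower on the forward array in 8 of 10. The call of Eif4a2 was lost in 7 of the 10 fits that left out 1 animal, those without day 7 animal 1, 3, 4 or 5 or day 21 animal 1, 2 or 3. Tpt1 passed the adjusted p without day 7 animal 1, at -0.10, and without day 21 animal 4, at -0.18.

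Pabpc1, the poly(A)-binding protein that links the tail of an mRNA to eIF4G, had 0.57, 0.22, 0.062 and 0.14 in 4 day 7 animals and -0.0001 in animal 2. Its day 7 mean was 0.20 ± 0.23 (SD, n = 5), with an adjusted p of 0.791 in limma. That mean was 0.11 without animal 1 and 0.026 under median centring. At day 21 it had 0.015 ± 0.12 (SD, n = 5), with 2 of 5 animals above 0. Over the 10 tested members among the TOP mRNAs, 6 were above 0 at day 7 and 10 at day 21, with medians of 0.016 and 0.059, and none passed the adjusted p. Under median centring 2 and 0 of the 10 were above 0, and without day 21 animal 5 the day 21 count was 6. Day 7 animal 1 had the highest TOP median, 0.22, and the other 9 animals lay between -0.051 and 0.13.

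The Argonautes bind small RNAs, and Ago2 can cut its target. Ago2 had 0.000058 ± 0.079 at day 7 and -0.041 ± 0.11 at day 21 (SD, n = 5), and Ago1 and Ago3 lay between -0.070 and 0.070. Ago4 did not pass the filter: it was well above background on 0 arrays in sprouting and 3 in non-sprouting neurons. Eif1a, which scans for the start codon, had 0.065 ± 0.35 (SD, n = 5) at day 7 and -0.034 ± 0.50 (SD, n = 4) at day 21.

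Single animals supplied most of the large ratios. Of 434 values of members in animals, 24 lay beyond 0.5 in size, from 15 genes in 6 animals. In 23 of the 24 the forward and dye-swap arrays had 1 sign, Tpt1 in day 7 animal 1 being the exception. Picking values by the mean of the same arrays favours 1 sign, so that count is a description. Day 21 animal 5 held 10 of the 24 values, 22.7% of its members against 11.5% of all features there. Eif5, Eif3e, Eif4a2, Eef1a1, Eif2s1, Eif3h, Eif3j, Eif1a and Eif4e were high in it, from 1.61 down to 0.64, and Eef1a2 was low. In that animal the median of the general neuron markers was -0.51, that of Pabpc1's partners and relatives 0.47 and that of granule and repressor proteins 0.37, whereas the neuron markers of the other day 21 animals had medians of -0.14 to 0.048.

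Day 7 animal 1 held 6 values beyond 0.5, 14.0% of its members against 7.89% of all features there, namely Eif4ebp1, Eif4e2, Eif1a, Pabpc1 and Tpt1 above 0 and Eef1a2 below. Its median over the members was 0.12 against 0.0070 to 0.020 in the other day 7 animals. In that animal the median of 5 tested blood cell markers was 1.57, against -0.020 to 0.22 in the other day 7 animals. Day 7 animal 2 held 4, 9.09% against 6.02%, with Eef1a2 above 0 and Eef1a1, Eif5b and Eif4a2 below, and its median over oligodendrocyte markers was -0.56, that of the others being -0.081 to 0.26. The medians of astrocyte markers ran from -0.14 to 0.15 at day 7 and -0.017 to 0.23 at day 21, and those of microglia and macrophage markers from -0.20 to 0.19 and from -0.090 to 0.0036. Endothelial medians ran from -0.075 to 0.13 and from -0.26 to 0.024. None of these markers was below background on every array in both cell types, and the part of other cells in the members' ratios was not tested.

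**Figure D5:**
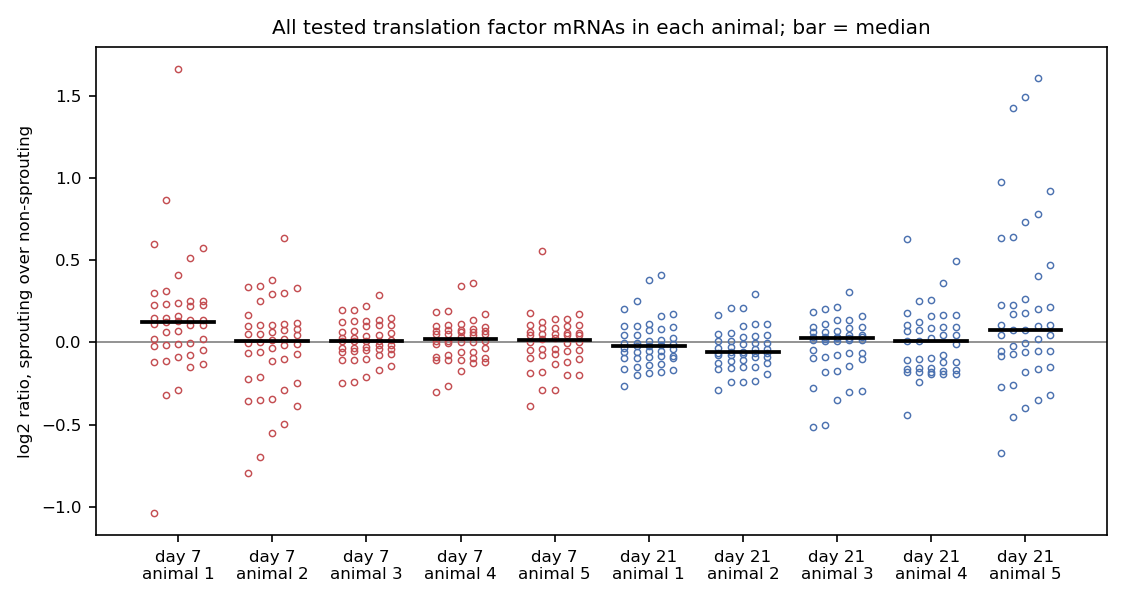
Log2 ratio of sprouting over non-sprouting neurons (y axis) for all tested factor mRNAs in each of the 10 animals (x axis). Each circle is 1 gene and the bar is the median of the animal. The bars lie between -0.057 and 0.12, day 21 animal 5 has the most circles beyond 0.5, with 10, and 4 of the animals have none.

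Translation factors that the array names otherwise were tested as well, and 0 of 14 passed the adjusted p in limma or had an unadjusted p under 0.05 at either day. Their ratios ran from -0.27 to 0.10 at day 7 and from -0.056 to 0.18 at day 21. Eef1d, a partner of Eef1b2, read 0.063 ± 0.20 and then -0.020 ± 0.35, and Eif2ak2, the kinase that senses double-stranded RNA, -0.13 ± 0.16 and 0.098 ± 0.52 (SD, n = 5). Eif4ebp2, the main 4E-binding protein of the brain, had 0.051 ± 0.097 and 0.087 ± 0.21, above 0 in 4 of 5 animals at each day, and Eif6, which keeps the large subunit from joining, 0.017 ± 0.037 and -0.012 ± 0.070 (SD, n = 5). Eif5a, which helps the ribosome past stretches of proline, had 0.018 ± 0.19 (SD, n = 5) at day 7 and -0.025 ± 0.090 (SD, n = 4) at day 21.

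Genes around the pathway were read from 6 lists, and none passed the adjusted p in limma at either day. Of 13 tested genes of mTOR and MNK signalling, 8 were above 0 at day 7 and 7 at day 21, with medians of 0.033 and 0.0064. Of 8 tested genes of the stress response downstream of eIF2, 6 were above 0 at day 7 and 1 at day 21, with medians of 0.14 and -0.11. Without day 7 animal 1 the day 7 count was 2 of 8 and the median -0.024, and under median centring 3 of 8 and -0.020. Of 16 tRNA synthetases and their scaffold proteins, 8 and 6 were above 0. Eprs, the bifunctional glutamyl-prolyl synthetase, had the smallest day 7 p of these lists, with 0.20 ± 0.044 (SE) and an adjusted p of 0.499 in limma. Of 6 termination and recycling factors 5 were above 0 at day 7 and 3 at day 21. The counts were 2 and 7 of 8 poly(A)-binding proteins and partners, and 9 and 11 of 19 granule and repressor proteins. Under median centring these lists had, in turn, 0 and 0, 2 and 2, and 7 and 6. Without day 21 animal 5 their day 21 counts were 2, 3 and 9. Median centring gave 3 and 1 for the synthetases and 5 and 6 for mTOR and MNK signalling.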

How the data were processed

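Neurons of 10 rats, 5 a day, were measured on 20 Agilent arrays with exchanged dyes, 2 arrays an animal, counted as 1 replicate. Spots were read by Agilent's Feature Extraction, named in the submitters' processing notes. The file headers give its version as 9.1.3.1. The deposited mean and background intensity of each spot, per the file headers, were used with the flags for saturated, outlying and well-above-background spots. The deposited log10 ratio, with Feature Extraction's own dye correction per the file headers, and the authors' deposited table of log2 ratios were alternatives. For those deposited log2 ratios, the normalization, centring and scale used are not given in the sources at hand. Their direction was found by setting each column against its array's values, and 20 further columns of it were not used.

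Intensities were corrected with normexp (offset 50) and loess by limma 3.58.1 (R 4.3.3, with data.table at version 1.17.8). Outlier-flagged spots were missing, saturated spots kept and spots of 1 probe averaged. Testing required a probe to clear background well, in 1 cell type, on the forward and the dye-swap array of 3 or more animals of 1 day. Limma's lmFit and eBayes took 1 value per animal, both days in 1 fit, with Benjamini-Hochberg adjustment over all 31000 features. Simulated data tested the fits. Exact permutations of days on the named members are not quoted, since some were named for their difference between days. Array numbers and signal over background, not read depth, limit precision here, and labels do not say more about the pools. The p-values set a mean against the spread of 1 value per animal. With 1 pool of each cell type per animal, that spread cannot part animals from capture and amplification.

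Named genes were 28 fixed by role, of which 23 are members and 5 are factors that the array names otherwise. Added were members with saturated spots and, per comparison, up to 6 of smallest p among members with 1 sign in every animal. For the change between days, the latter were members whose days did not overlap. Genes singled out beyond that rule were chosen after their values were seen. The members and lists were chosen with earlier results of these data known. Of the probes on the array, 21624 had no gene name here. Alternatives covered background, ratio source, centring, filter, flags, probe choice, orientation, animals and scan date. Animals that share a replicate number across days are separate animals, and their deviations did not correlate over 0.1 (-0.20 to 0.036), so the numbers pair nothing.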

Additional observations from a re-analysis of the deposited data

Results flagged for a closer look

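In 54 groups of up to 5 animals, 9 had 1 animal standing apart. The gap to its nearest neighbour was a large share of the group's range (above Dixon's 95% value). For a single group, chance gives about 1 in 20. The groups share animals and are not independent, so that rate cannot judge the count. No share of all features is given for comparison. Day 21 animal 5 supplied 6 of the 9. It stood above the others for Eif5 at 1.61, Eif3e at 1.49, Eef1a1 at 0.98, Eif2s1 at 0.92 and Eif2ak3 at 0.23, and below them for Eif2ak1 at -0.35. The forward and dye-swap arrays of that animal correlated at 0.95 over the members. Day 7 animal 1 supplied 2, Eif4ebp1 at 1.66 and the median of all members at 0.12. Eif2s1 was low in day 7 animal 5, at -0.20.

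Eif2ak1 differed between days by -0.27, with all 5 day 7 animals above 0 and all 5 day 21 animals below it. Of features tested, 0.797% had days that did not overlap and 0.184% had opposite signs in all animals of the 2 days. The difference of Eif2ak1 between days had an adjusted p of 0.923 in limma. Under median centring its ratio was below 0 at both days, at -0.064 and -0.38.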

How the results depend on the processing

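No alternative called a member for sprouting against non-sprouting neurons. Of 931 values of named members under all alternatives except those that leave out 1 animal, 849 kept direction and call, 75 reversed, 5 lost and 2 gained a call, and of 560 with 1 animal left out 518, 33, 7 and 2. The causes were not tested, and all of these values rest on few animals.

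Median centring moved the medians of members to -0.094 at day 7, -0.16 at day 21 and -0.13 for both days. That of the dye term became 0.44. The dye term's calls went from 4 to 42 of 44 members. Over all 30999 features they went from 5806 to 22524. Without background correction the dye term was called in 12 members and in 10566 of 30999 features. With arrays taken singly it was called in 1 member and in 6064 of 31000 features. Under median centring the reversed day 7 values were Eef1b2 -0.088, Eef1g -0.16, Eef2k -0.061, Eif2s1 -0.12, Eif2s3 -0.069, Eif2b5 -0.12, Eif2ak3 0.055, Eif2ak4 -0.10, Eif3e -0.14, Ago2 -0.052 and Eif2ak1 -0.064. At day 21 they were Eef1a1 -0.16, Eef1b2 -0.17, Eef1g -0.20, Eef2 -0.17, Eef2k -0.089, Tpt1 -0.046, Pabpc1 -0.21, Eif2s1 -0.027, Eif2s2 -0.16, Eif2s3 -0.14, Eif2ak3 0.050, Eif2ak4 -0.14, Eif3e -0.026, Eif4b -0.21, Eif4e -0.11, Eif4ebp1 -0.091 and Eif3a -0.14, and for the dye term Eif5 0.48, Eif5b 0.43, Eif4a2 0.53 and Tpt1 0.50.

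Eef2k day 7 reversed to -0.023 without background correction, to -0.00057 with background subtracted, to -0.042 from Feature Extraction's ratio and to -0.0012 in the authors' deposited table. Ago2 reversed at day 7 to -0.0010 with background subtracted and to -0.0020 in the authors' deposited table. Forward arrays alone gave Eef2 0.11, Eef2k -0.0012, Eif2ak3 0.057, Eif4b 0.051 and Ago2 -0.033, and dye-swap arrays alone Eif2s1 -0.010, Eif4a2 0.19 and Eif4e 0.022. Other reversed day 21 values were Eif4b -0.0027 and Ago2 0.0010 without background correction, and Eef2k -0.016, Eif4b -0.12 and Ago2 0.072 from Feature Extraction's ratio. The mean over probes gave Eef2k -0.055, Eif2s2 -0.049, Eif4a1 0.0036, Eif4b -0.037 and Eif3a -0.094. Forward arrays alone gave Eef1g -0.0043, Eef2k -0.013 and Ago2 0.0019, and dye-swap arrays alone Eif2b5 0.013 and Eif4b -0.023.

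With day 7 animal 1 and day 21 animal 5 both left out, which was chosen after seeing the data, members had a median of -0.038 at day 21 and 14 named values reversed. At day 7 these were Eef1a2 0.050, Eef2k -0.097, Eif2s1 -0.00041 and Eif3e -0.024, and at day 21 Eef1a1 -0.16, Eef1a2 0.034, Eif2s1 -0.052, Eif2b5 0.029, Eif2ak4 -0.037, Eif3e -0.12, Eif4a1 0.049, Eif4b -0.039, Eif4e -0.0071 and Eif5 -0.062.

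Leaving out 1 animal at a time, the day 7 median of members ran from -0.0032 (without day 7 animal 1) to 0.027 and the day 21 median from -0.038 to 0.045. Day 7 values that crossed 0 ran from -0.37 to 0.050 for Eef1a2, -0.029 to 0.043 for Eef1g, -0.089 to 0.077 for Eef2, -0.10 to 0.066 for Eef2k, -0.00041 to 0.075 for Eif2s1, -0.051 to 0.038 for Eif2ak3, -0.024 to 0.086 for Eif3e, -0.13 to 0.095 for Eif4a2, -0.028 to 0.0045 for Eif4b, -0.13 to 0.0092 for Eif4e, -0.14 to 0.041 for Eif4g2 and -0.028 to 0.027 for Ago2. Day 21 values that crossed 0 ran from -0.16 to 0.16 for Eef1a1, -0.22 to 0.034 for Eef1a2, -0.031 to 0.10 for Eef1g, -0.014 to 0.045 for Eef2k, -0.022 to 0.050 for Pabpc1, -0.052 to 0.22 for Eif2s1, -0.059 to 0.036 for Eif2b5, -0.037 to 0.13 for Eif2ak4, -0.12 to 0.31 for Eif3e, -0.10 to 0.049 for Eif4a1, -0.089 to 0.081 for Eif4b, -0.0071 to 0.19 for Eif4e, -0.041 to 0.22 for Eif4ebp1 and -0.062 to 0.41 for Eif5.

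With the replicate number as a block, the change between days had a median of -0.022 over the members and 0 calls, and Eif2ak1 stood at -0.27 with an adjusted p of 0.963 in limma. The numbers name separate animals, so the replicate block pairs nothing. No unsaturated probe of Tpt1 or Eif4a2 was on the array, so the brightest unsaturated probe could not replace theirs.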

Other observations

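Among the 8 tested genes of the stress response downstream of eIF2, Atf5, a transcription factor translated under stress, had -0.43 ± 0.16 (SE) at day 7 and -0.28 ± 0.16 (SE) at day 21, with adjusted p of 0.787 and 0.921 in limma. Atf3, a transcription factor induced in injured neurons, had 0.65 ± 0.52 (SE) at day 7 and -0.20 ± 0.52 (SE) at day 21, with adjusted p of 0.863 and 0.978 in limma. Atf5 and Atf3 were picked after their values were seen. At day 7, 6 of the 8 genes were above 0, with a median of 0.14. Without day 7 animal 1 these were 2 of 8 and -0.024.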
